A study of Mus musculus with 6 samples.

Results

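The genes described here are 10 adhesion genes of T cells, taken by symbol from 32227 genes in the files: *Itgal*, *Itgb2*, *Itga4*, *Itgb1*, *Itgb7*, *Itga1*, *Itgae*, *Itgav*, *Icam1* and *Cd2*. Each symbol was carried by a single entry of the deposited matrices. The study asked how loss of PD-1 in CD8 T cells alters them in the thymus, at rest in the spleen and inside a tumor. Single-cell RNA libraries were made from thymus and spleen of untreated mice and from B16-OVA melanomas 12 days after injection. Mice were C57BL/6, older than 8 weeks, and carried either floxed *Pdcd1* alone (*Pdcd1*fl/fl) or floxed *Pdcd1* with the E8I *Cd8a*-Cre transgene (*Pdcd1* cKO). There was 1 library for each label in each tissue, 6 in all, so differences between labels could not be separated from differences between mice or preparations and no test was made.

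The groups have limits as models. The E8I Cre acts late in the CD8 lineage, so thymocytes before that step carry an unrecombined allele in either label, and a cell that never expresses CD8 is not a target. Each tumor library pooled 3 mice, and each thymus or spleen library came from 1 mouse. Thymus and spleen cells were enriched with a CD8a isolation kit and tumor cells with CD8 microbeads, so tissue, enrichment and tumor bearing change together. Whether the deleted part of *Pdcd1* includes the 3′ end that was counted is not given in the sources used here.

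After the filter, the thymus libraries labelled *Pdcd1*fl/fl and *Pdcd1* cKO held 1067 and 2635 cells with medians of 4361 and 5417 UMIs. The spleen libraries held 1478 and 4928 cells with medians of 1320.5 and 1615 UMIs, and the tumor libraries held 456 and 561 cells with medians of 13809.5 and 9510 UMIs. Spleen cells were thus the shallowest and tumor cells the deepest. The filter kept 1478 of 6929 barcodes, with a median of 728 UMIs before it, in the spleen library labelled *Pdcd1*fl/fl and 4928 of 4963 in its counterpart, so the former stood apart from the other libraries. Cells with at least 1 UMI of *Cd8a* or *Cd8b1*, called cells with CD8 RNA below, were 55.2% and 66.5% of the thymus libraries, 58.4% and 78.8% of the spleen libraries and 75.4% and 91.3% of the tumor libraries. Because a UMI is more often missed in a shallow cell, cells without CD8 RNA in the spleen can include cells whose CD8 transcripts were not captured. All values below come in pairs, with the library labelled *Pdcd1*fl/fl before the library labelled *Pdcd1* cKO. Levels are CPM (counts normalized to the summed UMIs) of the summed cells, and bracketed 95% intervals cover counting error only.

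*Pdcd1* itself was examined before the other genes. In cells with CD8 RNA it stood at 2.46 and 9.16 CPM in the thymus, 0.724 and 12.2 CPM in the spleen and 105 and 113 CPM in the tumor. In thymus and spleen the library labelled *Pdcd1* cKO thus held more *Pdcd1* RNA than the library labelled *Pdcd1*fl/fl, and the tumor pools were close. In tumor cells with CD8 RNA led by T cell markers, which leave out the melanoma-led cells, it was lower in the library labelled *Pdcd1* cKO, at 188.7 and 153.8 CPM, but far from absent. The thymus values rest on 9 and 116 UMIs and the spleen values on 1 and 89 UMIs. The study reports loss of PD-1 protein in this model by flow cytometry of thymus and of tumor-infiltrating cells. It also reports that an anti-PD-1 antibody bound less to splenic CD8 T cells of *Pdcd1* cKO mice, at baseline and after stimulation. The RNA counts of thymus and spleen go against the labels if the counted end is deleted and check nothing if it is not, so groups are named by their labels throughout.

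Other label genes were read in the same pools. *Cd8b1* stood at 326 and 439.9 CPM in cells with CD8 RNA of the thymus, 865 and 1048 CPM in the spleen and 259 and 443 CPM in the tumor. *Cd4* stayed at or below 3.40 CPM in all of these pools. *Ddx3y*, on the Y chromosome, lay between 246 and 457 CPM while *Xist* lay at or below 0.819 CPM, so all 6 libraries read as male. Before the filter 2 barcodes were shared between libraries, and after it none.

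Marker lists of other cell types were read beside the members. In the tumor, cells led by melanoma markers made up 64 of 344 and 37 of 512 cells with CD8 RNA, or 18.6% and 7.23%. The summed level of the melanoma list, with 7 of 7 genes present, was 7331 and 4138 CPM in those pools, and its top genes were *Dct* and *Pmel*. Tumor cells with CD8 RNA led by T cell markers numbered 273 and 455, and in them the melanoma list summed to 255 and 172.5 CPM. The macrophage list, with 10 of 10 genes present, came to 81.1 and 522 CPM in tumor cells with CD8 RNA and the dendritic list to 99.0 and 348 CPM. The stroma list summed to 495 and 215 CPM there and the NK list to 17.4 and 87.3 CPM.

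Other lists were read in spleen and thymus. B cell markers led 0 of 863 and 9 of 3885 spleen cells with CD8 RNA, and no list led 43 and 286. In spleen cells with CD8 RNA the B cell list reached 177 and 1184 CPM, with *Ms4a1* at 0 in the former pool and *Igkc* at 897 CPM in the latter. The granulocyte list was 0 and 84.0 CPM in the same cells. In the thymus the immature list, with 5 of 5 genes present, summed to 725 and 508 CPM, led by *Dntt* at 423 and 278 CPM. *Trdc*, the only gene of a γδ T cell list found under its listed symbol, the others having different symbols in the files and not being read, stood at 149.9 and 99.8 CPM in those thymic cells. The T cell list itself summed to 6724 and 6393 CPM in the thymus, 5277 and 6650.4 CPM in the spleen and 3615 and 5419 CPM in the tumor. The part of these other cells in the results below was not tested, except where tumor cells led by T cell markers are taken alone.

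Integrins are paired α and β chains that anchor T cells to other cells and to matrix, and each pair depends on its partner to reach the surface. The β2 pair LFA-1 binds ICAM-1 and steadies the contact between a T cell and its target, as CD2 does through its own ligand. The chains α4 and αE share the partner β7, used for gut and epithelium, while α4, α1 and αv can also pair with β1 for vascular and matrix ligands.

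*Itgal* (chr7:126895432-126934320) encodes αL, the α chain of LFA-1. In cells with CD8 RNA it stood at 70.9 and 79.1 CPM in the thymus, 96.3 and 133 CPM in the spleen and 39.1 and 45.1 CPM in the tumor. Tumor pools were lowest and spleen pools highest, and only the libraries of the spleen had intervals that parted by label. In tumor cells with CD8 RNA led by T cell markers *Itgal* stood at 68.3 and 59.1 CPM, nearer the thymus pools than the whole tumor pools were. *Itgb2* (chr10:77366086-77401542) encodes β2, the partner of αL. Its levels were 59.9 and 60.0 CPM in the thymus, 134 and 173 CPM in the spleen and 56.8 and 87.8 CPM in the tumor. Spleen was highest in either label, while the thymus pools and the tumor pool labelled *Pdcd1*fl/fl overlapped at the bottom. The tumor cells led by T cell markers held *Itgb2* at 96.8 and 103 CPM, above the thymus pools.

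*Icam1* (chr9:20926672-20940113) encodes the main LFA-1 ligand, which T cells also display. It measured 22.4 and 22.7 CPM in the thymus, 61.6 and 101 CPM in the spleen and 8.40 and 13.4 CPM in the tumor. The order was spleen, thymus, tumor in either label, with no overlap between tissues. *Cd2* (chr3:101183215-101195458) encodes the receptor for CD48 in mice. It stood at 122 and 183 CPM in the thymus, 326 and 442 CPM in the spleen and 109.5 and 173 CPM in the tumor. Spleen again led, and the tumor and thymus pools of the same label overlapped. Without the melanoma-led cells the overlap was gone. Tumor cells with CD8 RNA led by T cell markers held 189.6 [175.7, 204.2] and 232.0 [219.1, 245.6] CPM, above the thymus.

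*Itga4* (chr2:79085660-79163467) encodes α4, the chain of VLA-4 and of α4β7. Cells with CD8 RNA held 56.1 and 76.1 CPM in the thymus, 40.6 and 70.2 CPM in the spleen and 11.4 and 13.1 CPM in the tumor. The tumor was the low tissue, and thymus and spleen overlapped within each label. *Itgb7* (chr15:102124429-102140379) encodes β7. It measured 57.2 and 64.8 CPM in the thymus, 121 and 129 CPM in the spleen and 9.60 and 12.3 CPM in the tumor. Tissues did not overlap and labels did. *Itgae* (chr11:72981409-73039917) encodes αE, known as CD103. Its levels were 44.9 and 59.6 CPM in the thymus, 21.7 and 20.6 CPM in the spleen and 5.85 and 5.09 CPM in the tumor, so the order was thymus, spleen, tumor.

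*Itgb1* (chr8:129411876-129460618) encodes β1, the partner of most matrix-binding α chains. It stood at 58.6 and 57.6 CPM in the thymus, 47.8 and 65.1 CPM in the spleen and 69.3 and 32.5 CPM in the tumor. The tumor pools were the highest and the lowest of the 6, and the 4 pools between them overlapped their neighbors. In tumor cells with CD8 RNA led by T cell markers *Itgb1* stood at 51.7 and 21.8 CPM, the former within the range of the thymus and spleen pools. *Itgav* (chr2:83554403-83637260) encodes αv, a chain for RGD ligands. It lay at 13.4 and 16.2 CPM in the thymus, 11.6 and 20.3 CPM in the spleen and 31.9 and 18.2 CPM in the tumor. Only the tumor pool labelled *Pdcd1*fl/fl lay apart from all others. The tumor cells led by T cell markers held *Itgav* at 25.6 and 14.8 CPM, the former nearer the other pools. *Itga1* (chr13:115089632-115238677) encodes α1, a collagen receptor chain. It remained between 7.97 and 13.8 CPM in all 6 pools, with neighboring intervals overlapping throughout.

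In the thymus, 0 of 10 members passed 2-fold between labels in cells with CD8 RNA, where 6.84% of all genes did. The largest ratio was that of *Cd2*, with a log2 ratio of 0.58 [0.44, 0.73] for *Pdcd1* cKO over *Pdcd1*fl/fl. The median over members was 0.23 against −0.18 over all genes, and 9 of 10 members lay above 0 where 34.8% of genes did. Leaving mitochondrial, ribosomal and *Malat1* UMIs out of the totals moved the median of all genes by 0.21. Among all genes called in this comparison 37.4% were higher, against 65.7% once centered on the median and 69.4% with the other totals. Cells with *Ccr7* and no *Dntt* RNA, described below, were 160 of 589 and 706 of 1753 cells with CD8 RNA in these pools.

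In the spleen, 0 of 9 members with enough UMIs passed 2-fold between labels, where 6.8% of all genes did, and *Itga1* had fewer than 100 UMIs. *Itgav* had the largest ratio at 0.81 [0.07, 1.66], followed by *Itga4* at 0.79 [0.39, 1.22] and *Icam1* at 0.71 [0.39, 1.06]. Intervals of *Itgb7* and *Itgae* spanned 0. The median over members was 0.45 against 0.18 over all genes. The low share of barcodes kept in the spleen library labelled *Pdcd1*fl/fl goes with these ratios, and its part was not tested. The other totals shifted the median of all genes by −0.14, and the share of called genes that were higher was 89.0%, 75.1% once centered and 77.9% with the other totals.

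In the tumor, 1 of 9 members passed 2-fold between labels in cells with CD8 RNA, where 9.94% of all genes did, and *Itgae* had too few UMIs. *Itgb1* was 2.13-fold lower in the library labelled *Pdcd1* cKO, with a log2 ratio of −1.09 [−1.33, −0.86]. *Itgav*, at −0.81 [−1.14, −0.49], leaned the same way below 2-fold. *Icam1* at 0.68 [0.19, 1.18], *Cd2* at 0.66 [0.53, 0.80] and *Itgb2* at 0.63 [0.44, 0.81] leaned the other way. The median over members was 0.21 against −0.14 over all genes. Of all called genes 37.4% were higher, against 55.2% once centered, and after centering *Itgb1* stood at −0.96, just under 2-fold. With CD8 called by 2 UMIs 0 members were called.

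Between spleen and thymus, 4 of 8 members differed by 2-fold in both labels, where 13.6% of all genes did. *Icam1* was 2.74-fold and 4.44-fold higher in the spleen, with log2 ratios of 1.46 [1.00, 1.91] and 2.15 [1.95, 2.35]. *Itgb2* was higher at 1.16 and 1.53 and *Cd2* at 1.41 and 1.27. *Itgae* was lower at −1.05 [−1.66, −0.48] and −1.53 [−1.79, −1.28]. *Itgb7* reached 1.08 in *Pdcd1*fl/fl and rounded to 1.00 from just below in *Pdcd1* cKO, so it was not called. *Itga1* and *Itgav* had too few UMIs.

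Medians of the tested members were 0.76 and 0.87 for spleen over thymus against −0.43 and −0.07 over all genes tested in the respective labels. Members went both ways, with 5 and 6 of 8 above 0. With the other totals the medians of all genes moved by 0.20 and −0.14. Called genes split 29.7% higher, or 41.4% once centered. After centering *Itgb7* replaced *Itgae* among the called members. With splits called after thinning, which leaves fewer UMIs, 0 members were called.

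Between tumor and spleen, 5 of 9 members were lower in the tumor in both labels and 0 higher, where 41% of all genes passed 2-fold. *Itgb7* fell 12.6-fold and 10.5-fold, with log2 ratios of −3.66 [−4.09, −3.23] and −3.40 [−3.73, −3.08]. *Icam1* fell 7.33-fold and 7.53-fold, and *Itga4* fell 3.56-fold and 5.34-fold. *Itgal* was lower at −1.30 [−1.61, −0.99] and −1.56 [−1.75, −1.38], and *Cd2* at −1.57 and −1.35. With splits called after thinning, which leaves fewer UMIs, 0 members were called and *Itgal* in *Pdcd1*fl/fl turned to 0.27. *Itgb2*, at −1.24 and −0.98, missed 2-fold in a single label, and *Itgae* had too few UMIs. Members had medians of −1.30 and −1.35 against 0.07 and −0.22 over all genes tested.

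Taking only cells led by T cell markers in either tissue left 3 of these calls, *Itga4*, *Itgb7* and *Icam1*. *Itgal* then stood at −0.47 and −1.17 and *Cd2* at −0.78 and −0.94, so the ratios of these genes were nearer 0 without the melanoma-led cells. *Itgb7* remained far lower, at −3.07 and −3.20.

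Between tumor and thymus, 3 of 10 members were lower in the tumor, where 43.7% of all genes passed 2-fold. *Itgae* was 7.67-fold and 11.7-fold lower, with log2 ratios of −2.94 [−3.48, −2.43] and −3.55 [−4.08, −3.07]. *Itga4* stood at −2.30 and −2.53 and *Itgb7* at −2.57 and −2.40. *Cd2* stood at −0.16 and −0.08. In tumor cells with CD8 RNA led by T cell markers *Cd2* measured 189.6 and 232 CPM, above thymic cells with CD8 RNA of the same label. With splits called after thinning 1 member was called. Medians of members were −0.51 and −0.79 against −0.67 and −0.55 over all genes tested. The other totals moved the medians of all genes by 0.11 and −0.13, and called genes split 24.2% higher, or 52.2% once centered.

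**Figure D1:**
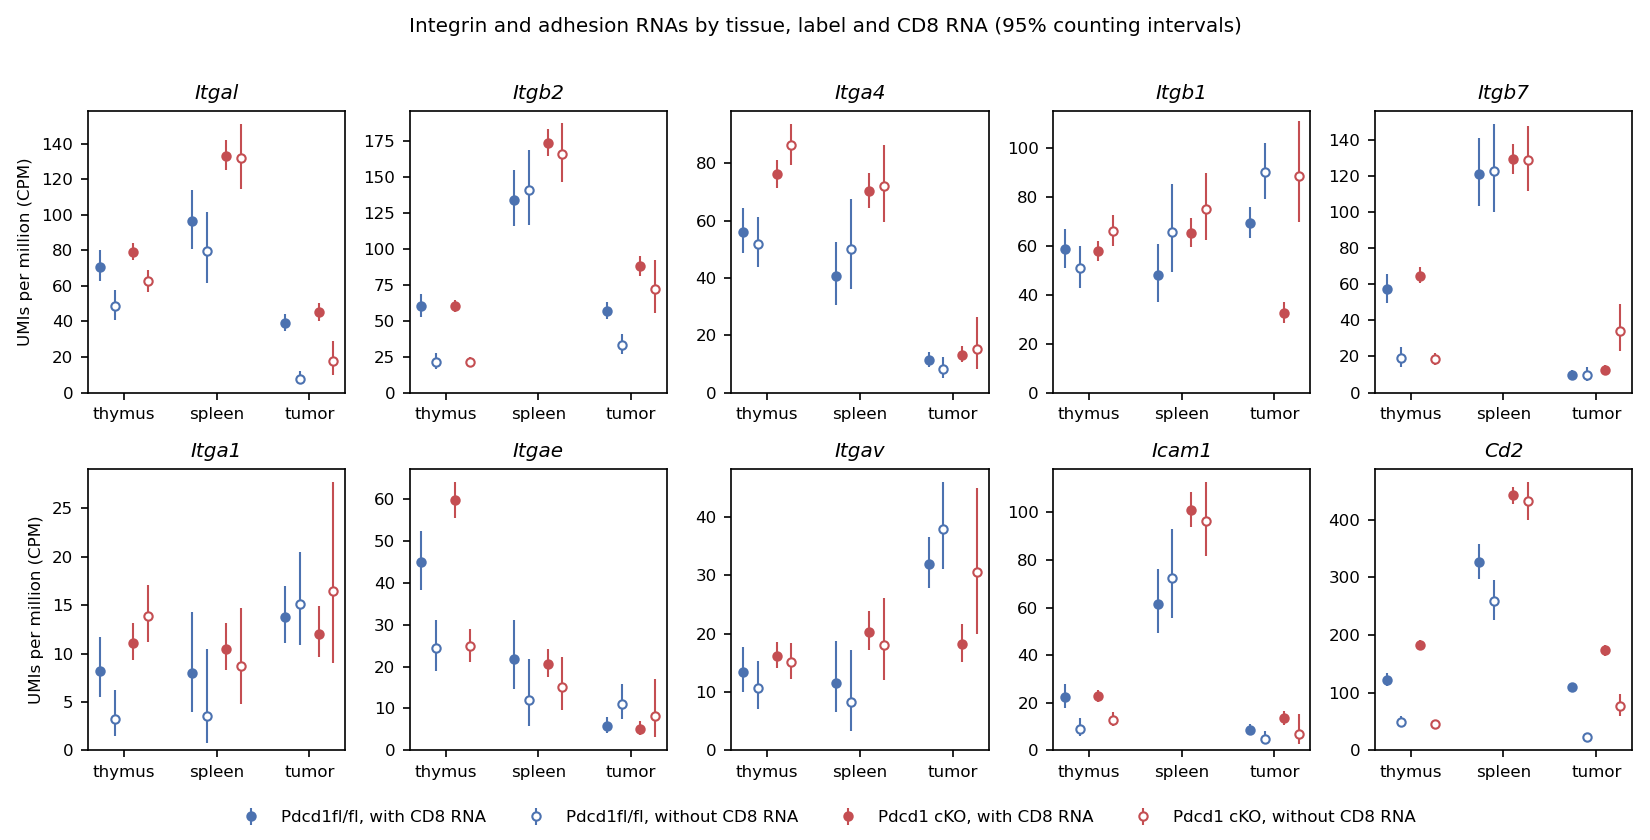
Levels of the 10 members in cells with and without CD8 RNA of each library, with 95% counting intervals. Panels have separate scales.

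In thymic cells without CD8 RNA, *Itgb2* stood at 21.2 and 21.0 CPM, *Itgb7* at 19.0 and 18.5 CPM and *Cd2* at 50.1 and 45.2 CPM. These 3 of 8 members were higher in cells with CD8 RNA in both labels, where 1.15% of all genes were called. *Itgb7* had log2 ratios of 1.59 [1.14, 2.06] and 1.81 [1.53, 2.10], and *Cd2* had 1.29 and 2.02. *Itgb2* differed 2.83-fold and 2.86-fold. *Itgae*, at 24.5 and 24.8 CPM without CD8 RNA, gave 0.87 and 1.26 and was called in a single label. *Itgal* stood at 48.6 and 62.7 CPM and *Icam1* at 9.14 and 13.0 CPM without CD8 RNA, below the cells with it. *Itga4* and *Itgb1* were near level, at 0.11 and −0.18 and at 0.20 and −0.19. *Itga1* and *Itgav* had too few UMIs. Members had medians of 1.08 and 1.04 against 0.00 and −0.19 over all genes, and the immature list was richer in cells without CD8 RNA, at 964 and 1067 CPM.

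In the spleen 0 of 6 members differed with CD8 RNA, where 0.117% of all genes did, and *Itga4*, *Itga1*, *Itgae* and *Itgav* had too few UMIs. Without CD8 RNA *Itgb2* measured 140.4 and 166 CPM, *Itgb7* 123 and 129 CPM and *Cd2* 259 and 432 CPM. *Itgal* measured 79.7 and 132 CPM and *Icam1* 72.6 and 96.3 CPM in the same cells. These lay close to the levels in cells with CD8 RNA. Medians were −0.04 and 0.02 over members and 0.02 and 0.00 over all genes, so shallow capture of CD8 RNA and a true likeness of the cells cannot be told apart.

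In tumor cells without CD8 RNA, *Itgal* stood at 7.74 and 17.7 CPM and *Cd2* at 23.2 and 76.6 CPM. Both were higher in cells with CD8 RNA, which made 2 of 5 tested members, where 7.94% of all genes were called. *Itgal* had log2 ratios of 2.34 and 1.35 and *Cd2* had 2.24 [1.87, 2.63] and 1.18 [0.82, 1.56]. With only cells led by T cell markers on either side, which left 11 and 10 cells without CD8 RNA, 0 members were called, *Cd2* turned to −0.85 and −1.29, and *Itgal* in *Pdcd1* cKO turned to −0.0919 on 5 UMIs without CD8 RNA. *Itgb1* was the reverse at −0.38 and −1.44, with 89.9 and 88.4 CPM outside the cells with CD8 RNA. *Itga4*, *Itgb7*, *Itga1*, *Itgae* and *Icam1* had too few UMIs. Medians were 0.78 and 0.29 over members and −0.34 and −0.27 over all genes, the latter moved by 0.19 and 0.22 with the other totals. Called genes split 45.8% higher, or 80.5% once centered and 69.6% with the other totals. The melanoma list summed to 13534 and 12497 CPM in cells without CD8 RNA. Of these cells 76 of 112 and 21 of 49 were led by melanoma markers, and the T marker values above leave them out.

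Thymic cells with CD8 RNA were divided into cells with *Dntt* and no *Ccr7* RNA (213 and 411) and cells with *Ccr7* and no *Dntt* RNA (160 and 706), a reading of earlier and later stage. *Itgb7* stood at 16.5 and 16.8 CPM in *Dntt* cells and at 153 and 111 CPM in *Ccr7* cells. *Itgae* went from 20.9 and 16.6 CPM to 103 and 109.6 CPM, and *Cd2* from 65.9 and 66.2 CPM to 283 and 275 CPM. *Itgb2* went from 29.2 and 32.3 CPM to 141 and 74.6 CPM. All of these were far higher in the *Ccr7* cells of either label. They were the 4 of 7 members called, where 20.1% of all genes were, and 0 were called after thinning, which leaves fewer UMIs. *Itga1*, *Itgav* and *Icam1* had too few UMIs.

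The stage ratios were largest for *Itgb7*, with log2 values of 3.22 [2.58, 3.90] and 2.73 [2.36, 3.10]. *Itgae* followed at 2.29 and 2.72. *Itgal* rose past 2-fold in a single label, at 1.57 and 0.94. *Itgb1* leaned down, from 57.7 and 63.4 CPM to 41.3 and 35.8 CPM. Medians were 2.10 and 1.21 over members and −0.17 and −0.24 over all genes. With the other totals the medians of all genes moved by 0.08 and 0.17, and the share of called genes that were higher went from 28.8% to 39.6%, or 45.9% once centered.

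The make-up of the shared β chains differed between stages, with *Itgb7* called and *Itgb1* not. *Itgb7* was 22.2% and 21.0% of the combined *Itgb7* and *Itgb1* UMIs in *Dntt* cells and 78.7% and 75.7% in *Ccr7* cells. *Itgae* was 34.0% and 20.5% of the combined *Itgae* and *Itga4* UMIs before and 58.3% and 61.0% after. In spleen cells with CD8 RNA the *Itgb7* share was 71.7% and 66.5% and the *Itgae* share 34.9% and 22.7%, the former nearer the *Ccr7* thymocytes and the latter nearer the *Dntt* thymocytes. In tumor cells led by T cell markers the *Itgb7* share was 22.1% and 39.1% and the *Itgae* share 26.7% and 23.4%.

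Within single thymic cells with CD8 RNA, *Itgae* was read by whether its partner was seen. It stood at 75.3 and 85.2 CPM in cells with an *Itgb7* UMI and at 36.6 and 48.7 CPM in cells without, log2 ratios of 1.04 [0.56, 1.52] and 0.81 [0.60, 1.02]. *Itga4* gave 0.04 and 0.09 in the same division. *Itgb7* and *Itgae* were both higher in *Ccr7* than in *Dntt* cells, and this division was not made within a stage. The part of stage in these thymic ratios was not tested. In the spleen *Itgae* gave 0.79 [−0.52, 1.98] and −0.02 [−0.62, 0.55] and *Itga4* gave 0.94 [0.04, 1.78] and 0.27 [−0.03, 0.56]. The last of these values rests on 131 and 383 UMIs and the others on fewer. In tumor cells led by T cell markers *Itgae* gave 1.30 [−0.23, 2.66] and 1.61 [0.31, 2.84] and *Itga4* gave −0.76 and −0.06. In the spleen *Itgal* in cells with over cells without an *Itgb2* UMI gave −0.01 [−0.66, 0.60] and 0.59 [0.39, 0.77], and the wide former interval contains the latter value. The same ratio was 0.30 and 0.28 in the thymus and 0.23 and −0.07 in tumor cells led by T cell markers.

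Division by stage was also used to compare labels, a step added after the first results were seen. In *Ccr7* cells 0 of 8 members passed 2-fold, where 7.39% of all genes did, and in *Dntt* cells 0 of 6 did, where 4.36% of all genes did. *Itga1* and *Itgav* had too few UMIs in either stage, and so did *Icam1* and *Itgb7* in *Dntt* cells. In *Ccr7* cells *Itgb2* came nearest, at −0.92 [−1.26, −0.56], and *Cd2* was level at −0.04. In *Dntt* cells *Itga4* came nearest, at 0.67 [0.27, 1.09], and *Cd2* was level at 0.01. Relative to the medians of all genes, *Cd2* stood at 0.32 in *Ccr7* cells and at 0.10 in *Dntt* cells. Medians were −0.30 over members and −0.36 over all genes in *Ccr7* cells, and 0.14 and −0.09 in *Dntt* cells. The other totals moved the medians of all genes by 0.25 and 0.16. The share of called genes that were higher was 20.5% in *Ccr7* cells, or 77.1% once centered and 60.5% with the other totals, and 51.5% in *Dntt* cells, or 66.5% and 77.7%.

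*Ccl5*, read as a sign of effector or memory state, stood at 401 and 1111 CPM in thymic and 3901 and 8071 CPM in splenic cells with CD8 RNA. Against cells with no *Ccl5* RNA, cells with any had 0 of 7 members called in the thymus, where 0.184% of all genes were, and 0 of 4 in the spleen, where 1.2% were. *Icam1*, *Itga1* and *Itgav* had too few UMIs in either tissue, and so did *Itga4*, *Itgae* and *Itgb1* in the spleen. In splenic cells with no *Ccl5* RNA, *Cd48* had 14 and 15 UMIs, against 104 and 921 in cells with any, at similar CPM. The group without *Ccl5* RNA was thus small there, and this division cannot decide on splenic state. Medians in the thymus were 0.33 and 0.20 over members and −0.07 and 0.01 over all genes, and in the spleen 0.19 and 0.26 over members and 0.02 and 0.10 over all genes. Thresholds by *Ccl5* UMIs were therefore added after these results were seen. In thymic cells with at least 10 *Ccl5* UMIs (56 and 274), *Itgb2* stood at 159 and 140.3 CPM and *Cd2* at 305 and 397 CPM. These 2 of 7 members were higher than in cells with at most 2 *Ccl5* UMIs, where 6.63% of all genes were called, with log2 ratios of 1.62 and 1.58 for *Itgb2* and 1.54 and 1.38 for *Cd2*.

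Other members had few UMIs in the same cells of the library labelled *Pdcd1*fl/fl. *Itga4* measured 38.7 [17.7, 73.4] and 149 [130.1, 169] CPM, on 9 and 233 UMIs, with ratios over cells of at most 2 *Ccl5* UMIs of −0.55 and 1.24. *Itgb1* measured 90.2 [55.8, 138] and 138 [120.0, 157] CPM, with ratios of 0.67 and 1.68. *Itgae* measured 43.0 [20.6, 79.0] and 23.0 [16.1, 31.8] CPM, with ratios of −0.06 and −1.53. Intervals of the labels parted for *Itga4* and overlapped for *Itgb1* and *Itgae*. *Icam1*, *Itga1* and *Itgav* again had too few UMIs for a call, here in the library labelled *Pdcd1*fl/fl. *Icam1* measured 60.1 and 45.9 CPM, against 18.9 and 18.3 CPM in cells of at most 2 *Ccl5* UMIs. *Itga1* measured 17.2 and 40.2 CPM against 5.97 and 5.38 CPM, and *Itgav* 17.2 and 29.3 CPM against 12.6 and 14.6 CPM. Medians were 0.68 and 1.24 over members and −0.30 and −0.14 over all genes, moved by 0.15 and 0.03 with the other totals. Called genes split 19.5% higher, or 39.9% once centered.

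In spleen cells with at most 2, 3 to 6 and at least 7 *Ccl5* UMIs, *Itgb1* stood at 28.2, 40.9 and 70.0 CPM in *Pdcd1*fl/fl. In *Pdcd1* cKO it stood at 31.4, 47.5 and 77.8 CPM. Top over bottom gave a log2 ratio of 1.31 in each label, but UMIs were fewer than 100 in *Pdcd1*fl/fl, so it was not called. *Itgae* stood at 30.3, 20.5 and 14.7 CPM, with overlapping intervals on 15, 7 and 8 UMIs, and at 33.4, 26.9 and 15.9 CPM. *Itgb7* as a share of *Itgb7* and *Itgb1* was 83.3% and 84.0% in the lowest group and 60.4% and 59.0% in the highest. By the 2-fold rule 0 of 3 members, *Itgb2*, *Itgb7* and *Cd2*, were called, where 1.02% of all genes were, and the other members had too few UMIs, with medians of 0.01 and 0.37 over members and 0.00 and 0.06 over all genes.

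**Figure D2:**
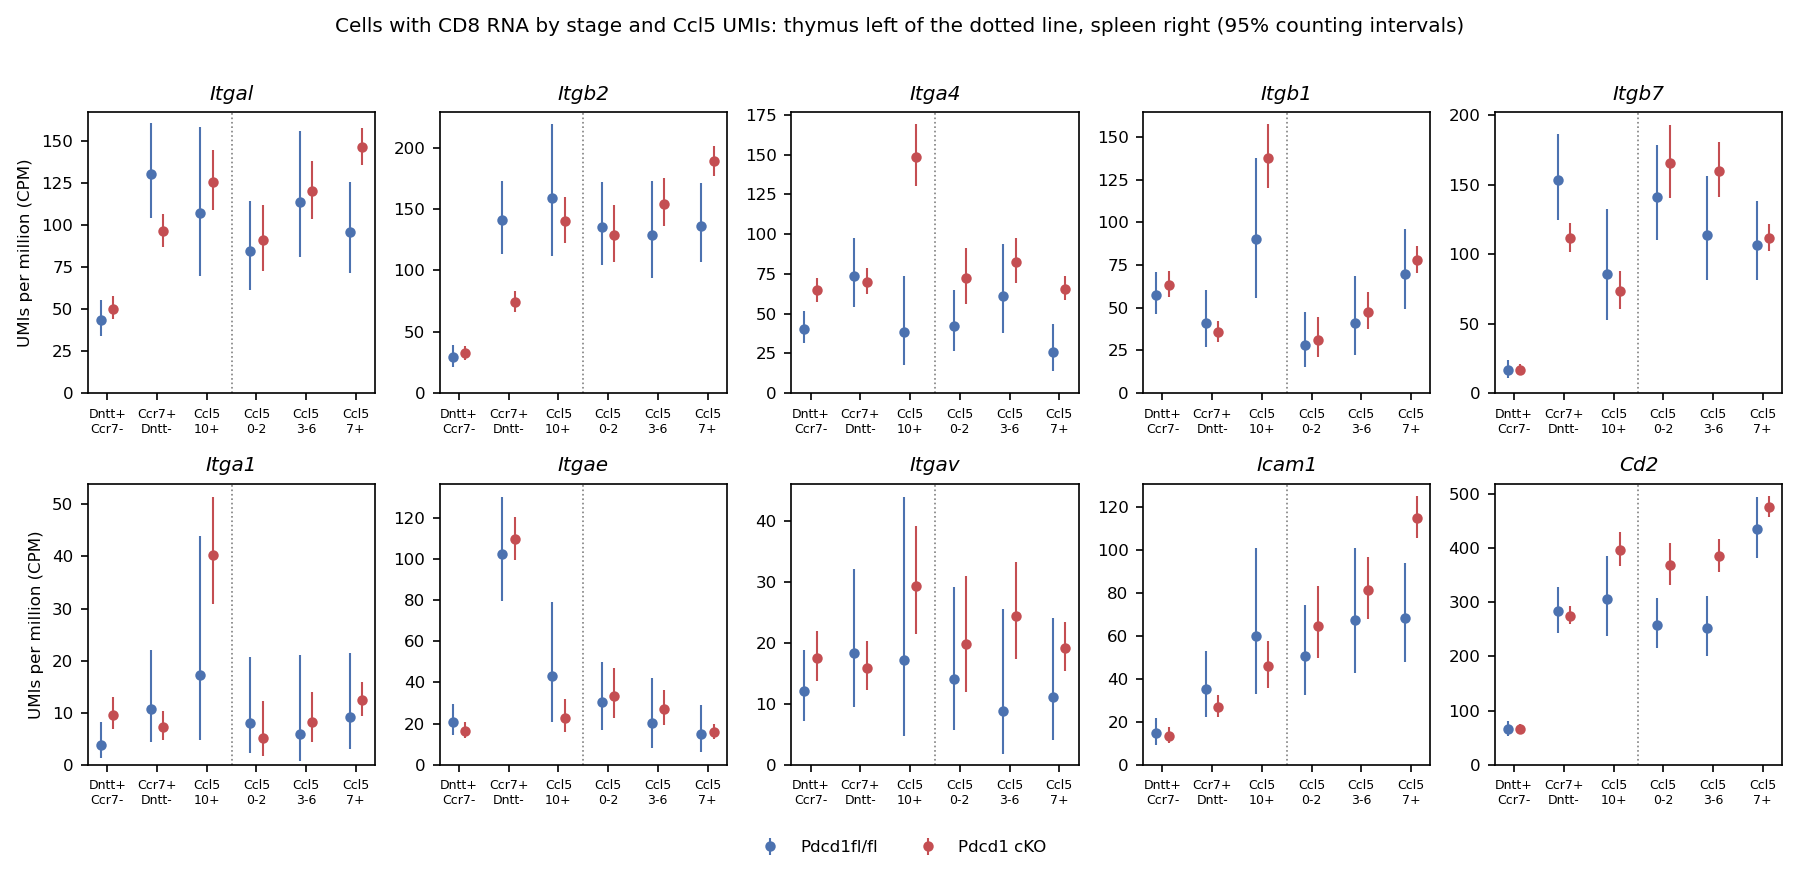
Levels of the members in thymic cells with CD8 RNA by stage and in thymic and splenic cells with CD8 RNA by *Ccl5* UMIs. Bars show 95% counting intervals.

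All tumor cells led by T cell markers (284 and 465), with or without CD8 RNA, were then set against cells led by melanoma markers (140 and 58), a comparison added after the first results were seen. Among these T marker cells *Itgal* stood at 67.4 and 59.2 CPM, *Itgb2* at 98.1 and 102 CPM and *Cd2* at 195 and 237 CPM. In melanoma-led cells the same genes stood at 4.20 and 4.81, 4.96 and 9.62, and 7.06 and 12.2 CPM. These 3 of 5 members were higher in T marker cells, where 36.3% of all genes were called, and *Cd2* differed 27.6-fold and 19.4-fold. *Itgb1* was the reverse, with log2 ratios of −0.84 and −1.53. *Itgav* was tested and not called, and *Icam1*, *Itga1*, *Itga4*, *Itgae* and *Itgb7* had too few UMIs. Medians were 4.00 and 3.41 over members and −0.80 and −0.36 over all genes. The latter medians moved by 0.41 and 0.33 with the other totals, and called genes split 23.6% higher, or 50.2% once centered and 40.2% with the other totals. The 16 and 19 macrophage-led cells held *Itgb2* at 281 and 315 CPM, above the T marker cells.

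Within the T marker cells with CD8 RNA, 1 of 8 members passed 2-fold between labels, where 5.7% of all genes did, and *Itga1* and *Itgae* had too few UMIs. *Itgb1* stood at 51.7 and 21.8 CPM, 2.37-fold lower in the library labelled *Pdcd1* cKO, with a log2 ratio of −1.25 [−1.60, −0.90]. Relative to the median of all genes it stood at −1.33. *Itgav*, at 25.6 and 14.8 CPM, gave −0.79 [−1.25, −0.34]. *Itgal*, at 68.3 and 59.1 CPM, *Itga4*, at 17.1 and 16.5 CPM, and *Itgb7*, at 14.7 and 14.0 CPM, were close between labels. *Itgb2* and *Icam1*, which leaned up among all tumor cells with CD8 RNA, gave 0.09 and 0.16 here, and *Cd2* gave 0.29 [0.16, 0.43]. The median was −0.06 over members and 0.08 over all genes. The other totals moved the median of all genes by −0.13, and called genes split 69.2% higher, or 58.5% with them.

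Several readings were added to describe the *Itgb1* difference. Its 190 UMIs in *Pdcd1*fl/fl came from 107 of 273 cells and its 112 UMIs in *Pdcd1* cKO from 96 of 455 cells, with no more than 3.16% in any cell. Melanoma-led cells held *Itgb1* at 89.9 and 63.4 CPM and macrophage-led cells at 162 and 138 CPM. Under the assumption that melanoma RNA is carried in the ratio of the melanoma list, it would bring 1.42 and 0.644 CPM of *Itgb1*, while RNA carried from macrophages was not estimated. *Ccr7* RNA differed between the same cells, at 352 and 62.6 CPM. In cells with *Ccr7* RNA (167 and 74) *Itgb1* stood at 52.0 [43.1, 62.3] and 27.0 [17.6, 39.6] CPM, and in cells without (106 and 381) at 51.1 [39.9, 64.4] and 20.6 [16.5, 25.4] CPM. The lower level in the library labelled *Pdcd1* cKO was present on either side of that division, and its cause was not tested.

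Cycling tumor cells, with *Mki67* or *Top2a* RNA, had 0 of 5 members past 2-fold against cells with neither, where 0.941% of all genes were called. Medians were 0.28 and −0.09 over members and 0.05 and 0.03 over all genes, and *Itga4*, *Itgb7*, *Itga1*, *Itgae* and *Icam1* had too few UMIs. Among T marker cells *Itgb1* stood at 58.9 and 20.4 CPM in cycling cells and at 46.1 and 22.6 CPM in the rest. The difference between labels was thus seen in cycling and other cells alike. *Itgal* stood at 81.4 and 60.5 CPM in cycling cells and at 58.2 and 58.4 CPM in the rest.

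**Figure D3:**
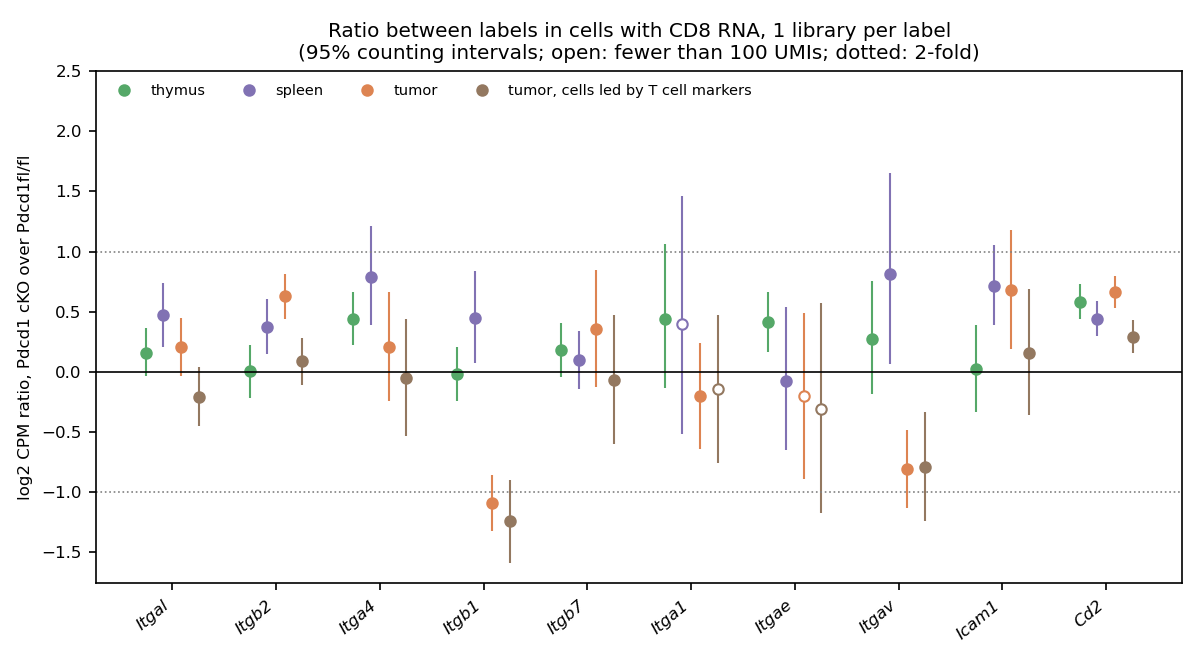
Log2 ratio of *Pdcd1* cKO over *Pdcd1*fl/fl for each member in cells with CD8 RNA of each tissue and in tumor cells led by T cell markers. Bars show 95% counting intervals and open symbols mark fewer than 100 UMIs.

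Shares of cells with a UMI were read in cells thinned to 1000 UMIs, with the unthinned share after each. *Cd2* was seen in 14.6% (44.5%) and 18.0% (57.6%) of thymic cells with CD8 RNA, 20.5% (29.8%) and 33.1% (50.2%) of splenic cells and 17.2% (79.9%) and 21.1% (81.1%) of T marker tumor cells. Median depths were 4353 and 5486 UMIs in the thymus, 1374 and 1686 UMIs in the spleen and 11084 and 9190 UMIs in the T marker tumor cells. As a background, melanoma-led cells with median depths of 32102 and 35962.5 UMIs showed *Cd2* in 0.714% (20%) and 0% (37.9%). Thinned shares put the spleen highest and unthinned shares put the T marker tumor cells highest.

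*Itgb1* was seen in 6.23% [3.67, 9.78] (39.2%) and 2.86% [1.53, 4.84] (21.1%) of T marker tumor cells, beside 9.29% (86.4%) and 3.45% (82.8%) of melanoma-led cells. The thinned intervals of the labels overlapped. *Itgal* was seen in 6.96% (53.5%) and 5.93% (43.3%) of T marker cells against 0.714% (12.9%) and 0% (19.0%) of melanoma-led cells. *Itgb2* was seen in 10.6% (62.6%) and 9.01% (62.0%) against 0.714% (17.1%) and 3.45% (24.1%). *Itgb7* was seen in 8.32% (24.4%) and 6.73% (31.1%) of thymic cells and 11.7% (16.1%) and 11.1% (19.1%) of splenic cells. *Itgae* was seen in 6.62% (20.4%) and 6.39% (26.9%) of thymic cells. As a background, melanoma-led cells of the tumor, which were deeper, showed *Itgb7* in 0% (7.86%) and 0% (3.45%). They showed *Itgae* in 1.43% (18.6%) and 1.72% (13.8%).

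Lists of related adhesion genes were read in the same way. Of 30 genes for integrin activation and linkage, 24 were tested between tumor and spleen, with 13 lower in the tumor and 1 higher in both labels, where 41% of all genes were called. Their medians were −1.39 and −1.70 against 0.07 and −0.22 over all genes tested. The lowest were *Apbb1ip* at −3.60 and *Dock2* at −3.57 in *Pdcd1*fl/fl and *Rasgrp2* at −3.58 and *Dock2* at −3.24 in *Pdcd1* cKO. *Parvb* was highest at 4.49 and 2.96, and *Ilk* came next at 1.07 and 0.24. *Parvb* was also far lower in T marker than in melanoma-led cells, at −5.16 and −5.00, so its rise in the tumor and the presence of melanoma RNA cannot be told apart. Of 19 genes of this list tested, 6 were higher in T marker than in melanoma-led cells and 2 lower, where 36.3% of all genes were called. For this list and those below, tumor pools set against spleen or thymus include the melanoma-led cells, which were deeper. T marker values are not given for these ratios, and the part of melanoma RNA was not tested.

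Against the thymus, 14 of 26 tested genes of this list were lower in the tumor and 1 higher, where 43.7% of all genes were called, with *Rasgrp1* lowest at −4.05 and −3.39. Between spleen and thymus only *Zyx* of 24 was called, at 1.40 and 1.63, where 13.6% of all genes were. By stage, *Ptk2b* and *Cytip* were the 2 of 19 genes called, both higher in *Ccr7* cells, where 20.1% of all genes were called. Between labels, the thymus had 1 of 26 genes called, *Tln2* at −1.59, where 6.84% of all genes were, and the spleen had 0 of 25, where 6.8% were. The tumor had 5 of 27, where 9.94% of all genes were called, with *Apbb1ip* higher at 1.26 and *Rasgrp2*, *Fermt2*, *Parva* and *Parvb* lower at −1.16, −1.12, −1.11 and −1.03. In T marker tumor cells only *Apbb1ip* of 21 was called, at 1.06, where 5.7% of all genes were.

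Of 18 listed other adhesion receptors, 17 were found under the listed symbols and *Cd99* was not. Between tumor and spleen 5 of 12 tested were lower and 1 higher in the tumor, where 41% of all genes were called. Among the lower genes, *Ly9* stood at −1.90 in *Pdcd1*fl/fl and *Slamf6* at −2.71 in *Pdcd1* cKO. *Cadm1* was highest at 6.20 and 4.10 but stood at −5.08 and −5.23 in T marker over melanoma-led cells. Between spleen and thymus *Cd44* was higher at 2.42 and 2.06 and *Cd6* at 1.37 and 1.29, the 2 of 11 called, where 13.6% of all genes were. Between labels 1 of 15 was called in the thymus, *Cd226* at 1.31, 0 of 13 in the spleen, with *Ly9* highest at 0.98, and 1 of 15 in the tumor, *Pecam1* at 1.07, beside 6.84%, 6.8% and 9.94% of all genes.

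Of 16 genes for integrin and CD2 ligands, few were tested. *Spp1* had 0 UMIs in cells with CD8 RNA of thymus and spleen and 97.6 and 100.8 CPM in the tumor. With the spleen set to a floor of 3 counts, its log2 ratio over the spleen was 5.49 and 7.94, with lower interval bounds of 5.19 and 7.64. Through that floor these ratios depend on the size of the spleen pools. All tumor cells led by T cell markers held *Spp1* at 67.6 and 96.3 CPM and melanoma-led cells at 104.6 and 93.6 CPM, and the part of melanoma RNA was not tested. *Tgfb1* was lower in the tumor than in the spleen at −1.39 and −1.59. Between labels 1 of 4 was called in the thymus, *Cdh1* at 1.26, and 0 of 3 in the spleen. In the tumor 3 of 7 were called, *Thbs1* higher at 1.73, *Fn1* lower at −2.07 and *Col1a1* lower at −9.20. These counts stand beside 6.84%, 6.8% and 9.94% of all genes called. For *Col1a1* 539 of 553 UMIs in *Pdcd1*fl/fl lay in 1 cell and for *Fn1* 113 of 142 did, so these 2 values rest largely on single cells. For *Thbs1* 23 of 38 UMIs in *Pdcd1*fl/fl lay in 1 cell. Its 134 UMIs in *Pdcd1* cKO, the higher side, came from 59 cells, with 17 in the top cell. In tumor cells with CD8 RNA led by T cell markers these 3 genes had too few UMIs to be tested. *Thbs1* had 7 and 42 UMIs there, *Fn1* 6 and 12 and *Col1a1* 7 and 1. Of the 4 ligand genes tested in those cells, *Icam2*, *Tgfb1*, *Cd48* and *Spp1*, 0 were called, where 5.7% of all genes were.

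Of 18 other integrin subunits, no more than 3 had enough UMIs in any comparison between labels, and 0 were called, beside 6.84%, 6.8% and 9.94% of all genes in thymus, spleen and tumor. In the thymus the values were 0.83 for *Itga11*, 0.00 for *Itga6* and −0.62 for *Itga5*. *Itga6* gave 0.28 in the spleen and *Itga9* gave −0.22 in the tumor. *Itga9* was higher in tumor than in thymus, at 1.72 and 1.44, where 43.7% of all genes were called, and lower in tumor cells with CD8 RNA than in those without, at −1.20 and −1.16, where 7.94% were.

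Likeness to other genes was described by Pearson r of log2 levels over 12 pools of library by CD8 RNA, among 4043 genes. *Itgal* was nearest to *Gimap1*, *Sit1* and *Ptpn22* at 0.98, and *Cd2* to *Gimap4* and *Trac* at 0.98 and *H2-Q6* at 0.97. *Itgb2* was nearest to *Shisa5*, *Glipr2* and *Hopx* at 0.96, and *Icam1* to *Arrb2* and *Epsti1* at 0.99 and *Myl12b* at 0.98. *Itga4* was nearest to *Dnajb6*, *Slu7* and *Diaph1* at 0.98, and *Itgb7* to *Ankrd44* and *Trim12a* at 0.97 and *Gramd1a* at 0.96. *Itgae* was nearest to *Gtpbp4* at 0.93, *Dhx15* at 0.92 and *Dnaja2* at 0.91. *Itgav* was nearest to *Bmyc* at 0.95, *Bin3* at 0.94 and *Map2k1* at 0.94. *Itgb1* and *Itga1* had neighbors of lower r, *Rtn4* at 0.88, *Marchf5* at 0.85 and *Ctdsp2* at 0.84 for the former and *Sdf2* at 0.85, *Rhog* at 0.84 and *Rbm42* at 0.83 for the latter. With 3 tissues behind the 12 pools, such values include differences between tissues. *Itga1*, *Itgae*, *Itgav* and *Icam1* themselves reached 100 UMIs in fewer than 6 of the 12 pools, so their values carry more counting error.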

How the data were processed

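The starting point was the raw count matrices deposited by the authors, made according to the submitters' processing notes with the PIPseq pipeline 3.2 on GRCm39 with GENCODE M39 and handled by the authors in Seurat 4.3.0. The study's cell filter was kept (500 genes, 1000 UMIs, 20% mitochondrial UMIs), and doublets were not removed, with an alternative that left out the deepest 2% of cells. UMIs were summed over the cells of a pool, with exact Poisson intervals for CPM and exact binomial intervals for ratios. A gene was called at 2-fold with at least 100 UMIs, in both labels where tissues or cell states were compared. In those comparisons, medians over all genes cover genes with at least 100 UMIs in the label given. Medians over all genes tested, and over members, cover genes that reach it in both labels. A cell was led by a marker list with at least 3 UMIs and 3 times the next list. Named genes of the other lists are those called and the 2 highest and 2 lowest in a comparison, of which a selection is printed. Some withheld genes of these lists are not reported here. Of 14 alternatives 1 was added, and 6 comparisons were added to 13 planned. Members and lists were chosen with earlier results of these data known. Work was done in Python 3.11.15 with numpy 2.4.6, scipy 1.17.1, pandas 2.3.3 and matplotlib 3.10.9, and the code was tested on simulated data.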

Additional observations from a re-analysis of the deposited data

Results flagged for a closer look

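The ratio of *Pdcd1* cKO over *Pdcd1*fl/fl for *Itgb1* was 0.45 in the spleen and −1.09 in the tumor, a difference of −1.54, and with T marker tumor cells alone it was −1.25, a difference of −1.69. For *Itgav* the ratio was 0.81 in the spleen and −0.81 in the tumor, a difference of −1.62, and with T marker tumor cells alone it was −0.79, a difference of −1.60. The spleen value of *Itgav* rests on 16 and 149 UMIs, the former in the library that kept a low share of its barcodes. These differences were not tested.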

How the results depend on the processing

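No paired analysis was possible because each label and tissue has 1 library and the sources used here do not link animals between tissues. Depth limited the calls, with *Itga1*, *Itgav* and *Itgae* below 100 UMIs in several comparisons. Of 534 called ratios under the alternatives 450 stayed, 80 moved and 4 reversed, and of 265 counts of called members 44 moved.

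Splits called after thinning to 1000 UMIs left few UMIs, and *Itgal* for tumor over spleen in *Pdcd1*fl/fl reversed to 0.27. Calls then numbered 1 between spleen labels, 0 for spleen over thymus, 0 for tumor over spleen, 1 for tumor over thymus, 0 by stage and 1 by thymic *Ccl5* UMIs. With only T marker cells, tumor cells with over without CD8 RNA had 0 calls, *Cd2* reversed to −0.85 and −1.29 and *Itgal* in *Pdcd1* cKO to −0.0919 on 5 UMIs, with 11 and 10 cells left without CD8 RNA, and tumor over spleen had 3. The cause was not tested.

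Centering left 0 calls between tumor labels. CD8 by 2 UMIs gave 1 call between spleen labels, 0 between tumor labels, 1 for spleen over thymus, 3 for tumor over spleen and 1 by stage. CD8 by *Cd8b1* alone gave 1 between spleen labels. The stricter filter gave 3 for tumor over spleen and no filter gave 1 for any splenic *Ccl5*. The cause was not tested.

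At 500 UMIs calls numbered 1 for spleen over thymus, 1 for tumor over spleen, 0 for tumor over thymus, 1 and 1 with over without CD8 RNA in thymus and tumor, 0 by stage, 0 by thymic *Ccl5* UMIs, 0 between labels in T marker cells and 1 for T marker over melanoma-led cells. At 20 UMIs they numbered 1 and 1 for any *Ccl5* in thymus and spleen, 4 and 2 by *Ccl5* UMIs, 1 between labels in *Dntt* cells and 6 for T marker over melanoma-led cells. At 50 UMIs they numbered 1 by splenic *Ccl5* UMIs and 6 for T marker over melanoma-led cells. Fewer or more genes qualify by construction.

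At 1.5-fold calls numbered 3 and 5 between spleen and tumor labels, 5 for tumor over thymus, 5 for thymic cells with over without CD8 RNA, 1 for any splenic *Ccl5*, 4 by thymic *Ccl5* UMIs, 1 and 1 between labels in *Ccr7* and *Dntt* cells, 2 in T marker cells and 5 for T marker over melanoma-led cells, a wider rule by construction.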
